A study of Homo sapiens with 27 samples.

Results

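The genes described here are 10 regulators of the G1 phase of the cell cycle, measured in the human melanoma cell line 501mel. They are the cyclin genes CCND1, CCND3, CCNE1 and CCNE2, the kinase genes CDK2, CDK4 and CDK6, and the inhibitor genes CDKN1A, CDKN1B and CDKN2C. They were taken by symbol, with no threshold on their values, from a table of normalised read counts that holds 13523 genes. Of these 10 genes, 9 had a row in the table, and those 9 were among the 13052 genes with a normalised read count of at least 1 in at least 3 libraries, which were tested. CDKN1A, which encodes the inhibitor p21, is not analysed here.

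Passage through G1 is driven by cyclins bound to cyclin-dependent kinases. D-type cyclins, made in response to growth signals, pair with CDK4 and CDK6, and E-type cyclins, made late in G1 largely under E2F transcription factors, pair with CDK2; both kinds of complex phosphorylate the retinoblastoma protein and release E2F. CDKN1B (p27) binds cyclin and kinase complexes, and CDKN2C (p18) is an INK4 inhibitor that binds CDK4 and CDK6. mTORC1, the kinase complex that couples amino acid supply to growth, is known to promote the G1 to S transition, and it also holds the transcription factors TFE3 and TFEB, relatives of the melanocyte factor MITF, in the cytoplasm.

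501mel is an established line with high MITF, and polyadenylated RNA was profiled as 3' end libraries in 9 groups labelled with 3 libraries each. Unedited (WT) cells were left non-treated, kept for 12 h in HBSS, a salt solution with glucose and without amino acids, or given 250 nM of Torin1, an mTOR kinase inhibitor, for 12 h. TFE3 KO cells, TFEB KO cells and cells with both genes knocked out (DKO), all made from 501mel with Cas9, had a 12 h control group and a group given 250 nM of Torin1 for 12 h. The TFE3 KO and the TFEB KO cells were each 1 clone per the study's text, so clone and genotype cannot be told apart, and the WT control was labelled as non-treated where the knockout controls carried a time of 12 h. The third WT HBSS library and the first WT Torin library held the same value for all 13523 genes; both were left out, which leaves 25 libraries, 2 in each of those groups and 3 in each of the other groups. The identical column had 12917 detected genes. The other WT HBSS libraries had 12895 and 12901, and the other WT Torin libraries had 13188 and 13181. Which label is right was not tested. If it is HBSS, fits below that return this column as WT Torin mix the 2 treatments. The labels do not say that libraries came from separate cultures, so p-values measure the spread between these samples only.

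The libraries held 4147050 to 6526392 reads and 12895 to 13414 detected genes, and 3 reads were worth a normalised read count of 0.460 to 0.711. All 8 melanocyte or melanoma markers had a row (summed 5193 to 14482), while no keratinocyte or endothelial marker did; 2 of 5 fibroblast markers summed to 0.208 to 6.62 and, of the leukocyte markers, CD68 alone was present (29.5 to 74.2), with COL1A2, PDGFRB, PTPRC and CD3E among those without a row. TFE3 RNA was 24.0 in the WT control, 6.30 in TFE3 KO and 6.35 in DKO controls (log2 fold change -1.79 and -1.77). TFEB RNA was 3.25 in the WT control and 1.11 in TFEB KO (log2 fold change -1.02, adjusted p = 0.0249, limma), but it was also low, at 0.681, in TFE3 KO, and it stood at 29.2 in WT HBSS. MITF RNA was 762 in the WT control, 1423 in WT HBSS, 857 in TFE3 KO Torin and 556 in the DKO control. In bulk RNA, fewer cells in a phase and less RNA per cell cannot be told apart.

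Start sites were examined because TFE3, TFEB and MITF bind E-box letters such as CACGTG and CATGTG. RefSeq promoter windows of 300 bases (build GRCh38.p14, 250 before and 50 after a start site) were given for 6 of the 9 genes, 11 windows in all. CACGTG was present on either strand in 4 of the 11 windows, those of CDK4, CDK6 and CDKN2C (in 2 windows), against 7.26% of all 35116 windows of this length. CATGTG was in 1 window, that of CDK4, against 11.1% of all windows, and the FOXO letters GTAAACA were in 1 window of CCND3, against 3.42%. None of the 11 windows held the E2F letters TTTCCCGC, TTTGGCGC, TTTCGCGC or TTTGCCGC, which 3.31% of all windows held, and none of the matches overlapped another. The 3 stretches below are shown because they hold most of these matches, in capitals, on the gene's strand from 5' to 3'; a match describes letters and is not evidence of binding.
CDK4, chr12:57752311-57752560, minus strand, from 250 bases to 1 base before the start site, with CACGTG at -216, -196 and -101 and CATGTG (read as CACATG) at -34: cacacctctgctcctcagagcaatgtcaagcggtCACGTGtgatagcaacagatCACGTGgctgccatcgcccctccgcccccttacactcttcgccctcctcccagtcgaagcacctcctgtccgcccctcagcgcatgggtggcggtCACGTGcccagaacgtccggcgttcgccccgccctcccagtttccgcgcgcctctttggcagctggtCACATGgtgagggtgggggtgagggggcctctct
CDKN2C, chr1:50970095-50970244, plus strand, from 150 bases to 1 base before the start site, with CACGTG at -69: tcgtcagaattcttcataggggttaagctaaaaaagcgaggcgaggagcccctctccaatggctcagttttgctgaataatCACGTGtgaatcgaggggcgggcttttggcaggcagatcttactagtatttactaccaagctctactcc
CCND3, chr6:42048684-42048788, minus strand, from 100 bases before to 5 bases after the start site, with GTAAACA from -2: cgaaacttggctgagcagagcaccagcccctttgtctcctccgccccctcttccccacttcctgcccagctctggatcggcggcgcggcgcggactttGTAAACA

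All values below are normalised read counts, and fold changes are differences of log2(value + 1), which understate the change of low genes. A gene is said to rise, fall or change where the limma adjusted p over all 13052 genes was under 0.05, and to be called where it also changed at least 2-fold. Levels are not compared between genes, since the values are not per length. With 2 or 3 libraries per group, groups without overlap are common. Treated and control libraries did not overlap for 63.1% of all genes in HBSS. With Torin the share was 60.2% in WT, 58.4% in TFE3 KO, 47.2% in TFEB KO and 57.1% in DKO cells. For knockouts against WT it was 26.9% to 28.2% in the control state and 37.1% to 45.8% with Torin.

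**Figure D1:**
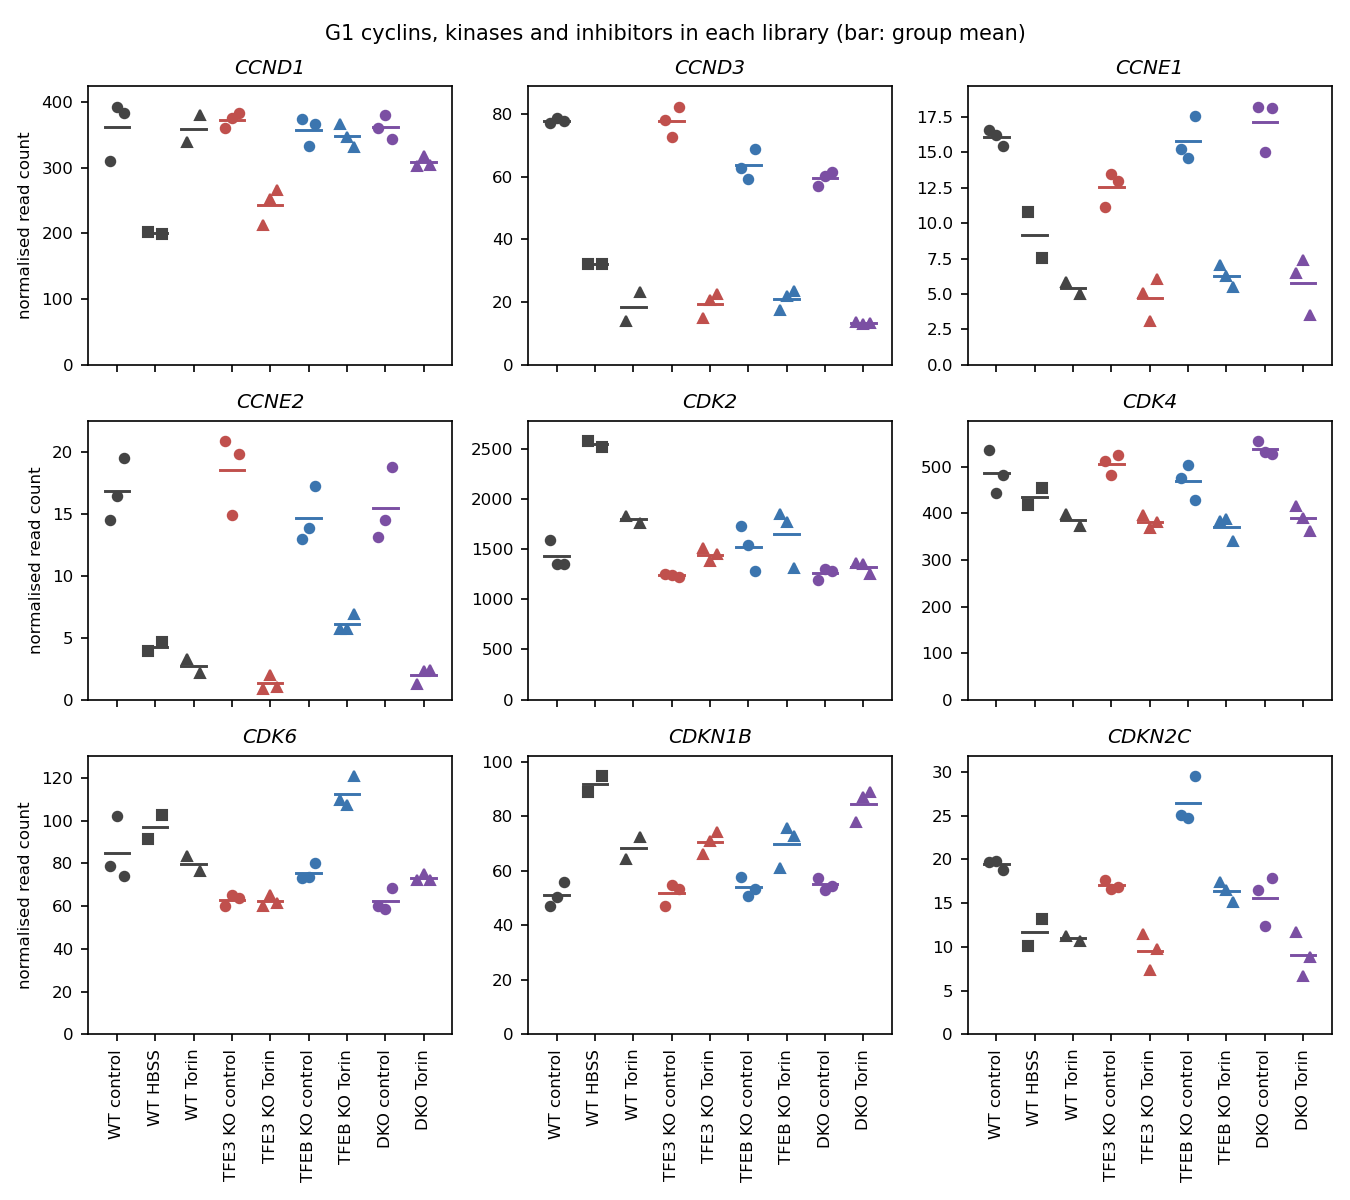
Normalised read count (y axis, linear from 0) of each gene in each of the 25 libraries by group (x axis); circles are control, squares HBSS and triangles Torin libraries, and the bar is the group mean. CCND3, CCNE1 and CCNE2 show every Torin library below every control library, CCND1 is lowest in WT HBSS, and CDK6 is highest in TFEB KO Torin, at 107 to 121.

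CCND1 encodes cyclin D1, a D-type cyclin that activates CDK4 and CDK6, and lies on chr11:69641156-69654474 (hg38, plus strand). It fell in HBSS but not with Torin in WT cells. Its 3 WT control libraries had 311, 393 and 384, the 2 HBSS libraries 203 and 199, and the 2 WT Torin libraries 339 and 380. The HBSS libraries lay below every library of the other 8 groups, whereas the WT Torin libraries lay within the control range. The HBSS change was -0.84 on the log2 scale (SE 0.09, adjusted p = 4.40e-11), and the Torin change in WT was -0.01 (95% confidence interval -0.19 to 0.17, adjusted p = 0.959).
In TFE3 KO cells CCND1 did fall with Torin, from 360, 375 and 384 in the control to 213, 252 and 267, with no overlap. The change was -0.62 (SE 0.08, adjusted p = 6.52e-09). TFEB KO cells had 374, 333 and 367 in the control and 366, 347 and 331 with Torin, which overlapped (-0.04, interval -0.20 to 0.12). DKO cells had 360, 380 and 344 in the control and 302, 318 and 303 with Torin, a change of -0.23 (adjusted p = 0.0138) that lay between those of the single knockouts. The DKO change did not pass with edgeR (adjusted p = 0.0544), without DKO control replicate 2 (-0.19, adjusted p = 0.0724) or with the identical column returned as a WT Torin library (adjusted p = 0.173).

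CCND3 encodes cyclin D3, which also activates CDK4 and CDK6, and lies on chr6:41934934-42050357 (minus strand). It fell with both treatments and in every genotype, and more than 2-fold each time. The WT control libraries had 77.1, 78.6 and 77.7, the HBSS libraries 31.99 and 32.23, and the WT Torin libraries 13.8 and 23.2. Both treated groups lay far below the control, and the Torin libraries lay below the HBSS libraries.
The HBSS change was -1.25 (SE 0.15, adjusted p = 2.45e-09) and the WT Torin change -2.06 (SE 0.15, adjusted p = 2.28e-15), a fold of 4.16 in the value + 1. With Torin, TFE3 KO libraries had 14.8, 20.7 and 22.7 against 78.2, 72.5 and 82.3. TFEB KO libraries had 17.4, 22.0 and 23.6 against 62.8, 59.2 and 69.0, and DKO libraries 13.7, 13.1 and 13.4 against 56.9, 60.3 and 61.5. The Torin ranges of WT, TFE3 KO and TFEB KO overlapped, and the 3 DKO libraries were the lowest of the 25. The changes were -1.97 in TFE3 KO, -1.56 in TFEB KO and -2.07 in DKO cells.
Before treatment CCND3 was 63.7 ± 4.92 in TFEB KO and 59.6 ± 2.41 in DKO (SD, n = 3 each), below the 77.8 ± 0.76 of the WT control without overlap. Neither difference passed with limma over all groups (-0.29, adjusted p = 0.162, and -0.38, adjusted p = 0.0592). The DKO difference did pass with edgeR (adjusted p = 0.02005), DESeq2 (adjusted p = 0.0139) and limma on only the groups compared (adjusted p = 0.0177).

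CCNE1 encodes cyclin E1, an activator of CDK2 and itself a target of E2F, and lies on chr19:29811991-29824312 (plus strand). It fell in HBSS and with Torin in all genotypes. Its WT control libraries had 16.6, 16.2 and 15.4, the HBSS libraries 10.8 and 7.53, and the WT Torin libraries 5.86 and 4.98. All treated WT libraries were below all controls. The change was -0.77 in HBSS (SE 0.23, adjusted p = 0.00516) and -1.41 with Torin (SE 0.23, adjusted p = 1.99e-06). The HBSS change did not pass without WT HBSS replicate 2 (-0.53, adjusted p = 0.145).
Torin took CCNE1 to 5.09, 3.12 and 6.03 in TFE3 KO cells, from 11.1, 13.5 and 12.9. It was 7.07, 6.28 and 5.50 against 15.3, 14.6 and 17.6 in TFEB KO cells, and 6.46, 7.40 and 3.54 against 18.2, 15.0 and 18.2 in DKO cells. The 4 Torin groups overlapped one another and none overlapped its own control. The changes were -1.27, -1.21 and -1.46.

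CCNE2 encodes cyclin E2, the second E-type partner of CDK2, and lies on chr8:94879770-94896678 (minus strand). It had the largest fall of the 9 genes in HBSS and with Torin in WT, TFE3 KO and DKO cells; in TFEB KO cells CCND3 and CCNE1 fell further. The WT control libraries had 14.5, 16.4 and 19.5, the HBSS libraries 3.91 and 4.60, and the WT Torin libraries 3.28 and 2.13. The change was -1.75 in HBSS (SE 0.25, adjusted p = 7.17e-08) and -2.27 with Torin in WT cells (SE 0.25, adjusted p = 2.04e-10).
The level reached with Torin lay lower in TFE3 KO than in TFEB KO cells, each 1 clone. TFE3 KO libraries went from 20.8, 14.9 and 19.8 to 0.848, 2.004 and 1.04, which were 4, 9 and 5 reads. TFEB KO libraries went from 13.0, 13.9 and 17.2 to 5.69, 5.65 and 6.92, and DKO libraries from 13.1, 14.5 and 18.8 to 1.23, 2.28 and 2.36. The 3 TFEB KO Torin libraries lay above every other Torin and HBSS library, and the TFE3 KO and DKO Torin libraries overlapped at the bottom of the order. The changes were -3.10 (8.60-fold) in TFE3 KO, -1.14 (2.21-fold) in TFEB KO and -2.49 (5.60-fold) in DKO cells, each with an SE of 0.22. These folds are of the value + 1 and understate the fall of the values themselves.

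CDK4 encodes the kinase partner of D-type cyclins and lies on chr12:57747727-57756013 (minus strand). Its changes were small but went the same way in all genotypes under Torin. WT control libraries had 536, 443 and 484, HBSS libraries 419 and 454, and WT Torin libraries 399 and 373. HBSS overlapped the control (-0.16, interval -0.32 to 0.01, adjusted p = 0.110), whereas Torin lay below it (-0.33, SE 0.08, adjusted p = 0.000812).
With Torin, CDK4 was 397, 369 and 381 in TFE3 KO cells (control 513, 482 and 526), 385, 389 and 341 in TFEB KO cells (control 476, 504.4 and 430) and 415, 390 and 363 in DKO cells (control 555, 533 and 527). No Torin group overlapped its control, and the 4 Torin groups overlapped one another. The changes were -0.41, -0.34 and -0.47. With the identical column returned as a WT Torin library, the WT change was -0.23 (adjusted p = 0.0582). The 3' end of CDK4 overlaps TSPAN31, on the opposite strand, over 2493 bases; TSPAN31 (5.92 to 32.9 over the 25 libraries) rose with Torin by 0.59, 0.81, 0.79 and 1.38 in the genotype order WT, TFE3 KO, TFEB KO, DKO, opposite to CDK4. TSPAN31 and the 3 other overlapping genes named below were looked up after the values were seen, and the strand setting of the counting is not given in the sources used here.

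CDK6 encodes the other D-type cyclin kinase and lies on chr7:92604921-92836573 (minus strand). It differed between genotypes rather than with treatment of WT cells. WT control libraries had 78.6, 102 and 74.2, HBSS libraries 91.4 and 103, and WT Torin libraries 83.2 and 76.3, all overlapping the control. Neither change passed (0.20, adjusted p = 0.123 in HBSS, and -0.08, adjusted p = 0.603 with Torin).
TFE3 KO cells had 59.9, 65.2 and 63.8 in the control and 60.2, 65.2 and 61.6 with Torin, below every WT library. TFEB KO cells had 73.1, 73.5 and 80.2 in the control and 110, 107 and 121 with Torin, above every other library. DKO cells had 60.1, 58.4 and 68.4 in the control and 72.0, 75.1 and 72.2 with Torin. CDK6 rose with Torin by 0.57 in TFEB KO cells (SE 0.10, adjusted p = 6.37e-06) and by 0.23 in DKO cells (SE 0.10, adjusted p = 0.0447), and did not pass in TFE3 KO cells (-0.01, interval -0.21 to 0.18). The DKO rise missed the threshold in 5 of the 6 fits that left out 1 of its 6 libraries (adjusted p from 0.0189 to 0.163), namely all but the one without DKO control replicate 3.

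CDK2 encodes the kinase partner of E-type cyclins and lies on chr12:55966781-55972789 (plus strand). It rose in HBSS and, by less, with Torin in WT cells. WT control libraries had 1586, 1348 and 1352, HBSS libraries 2572 and 2516, and WT Torin libraries 1827 and 1763. Both treated groups lay above the control, and the HBSS libraries were the highest of all 25. The changes were 0.84 (SE 0.12, adjusted p = 2.62e-06) and 0.33 (SE 0.12, adjusted p = 0.0230).
In the knockouts the Torin change of CDK2 did not pass with limma over all groups: it was 0.22 in TFE3 KO (adjusted p = 0.0807), 0.11 in TFEB KO (adjusted p = 0.417) and 0.07 in DKO cells (adjusted p = 0.589). The TFE3 KO change did pass with edgeR (adjusted p = 0.0161), DESeq2 (adjusted p = 0.0331) and limma on only the groups compared (adjusted p = 0.00113). TFE3 KO libraries had 1256, 1241 and 1222 in the control and 1512, 1377 and 1446 with Torin, without overlap, and DKO libraries 1187.5, 1303 and 1278 against 1360, 1351 and 1249.8, which overlapped. The TFEB KO libraries spread most, from 1279 to 1733 in the control and from 1315 to 1853 with Torin, and without TFEB KO Torin replicate 3 the change there was 0.27 (adjusted p = 0.00791). The WT Torin change missed the threshold in 4 fits that left out 1 library, those without WT control replicate 2 or 3 or either WT Torin library (adjusted p from 0.0655 to 0.112).
All 6009 bases of CDK2 lie inside PMEL, on the opposite strand, a melanosome gene with 1938 to 4464 over the libraries. PMEL rose in HBSS by 0.90 and with Torin by 0.63, 0.67, 0.33 and 0.62 in the same genotype order, in the direction of CDK2. Over the 25 libraries, which share groups and scaling, Pearson's r between CDK2 and PMEL was 0.64, and 0.16 once group means were removed. The annotated 3' end of PMEL, at chr12:55954105, lies outside CDK2. The part of PMEL reads in the CDK2 values was not tested, and the CDK2 values are uncertain for that reason.

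CDKN1B encodes p27, an inhibitor of cyclin E and CDK2 complexes whose gene is known to be activated by FOXO factors, and lies on chr12:12685498-12722369 (plus strand). It rose in HBSS and with Torin in all genotypes, by less than 2-fold. WT control libraries had 47.2, 50.3 and 55.8, HBSS libraries 88.8 and 94.8, and WT Torin libraries 64.5 and 72.3. No treated library overlapped the control. The changes were 0.84 in HBSS (SE 0.11, adjusted p = 1.52e-08) and 0.41 with Torin (SE 0.11, adjusted p = 0.00199), the latter not passing without WT Torin replicate 3 (0.33, adjusted p = 0.0617).
Torin libraries of TFE3 KO cells had 66.4, 71.0 and 74.5 against 47.2, 54.7 and 53.5. TFEB KO cells had 61.2, 75.7 and 72.9 against 57.8, 51.0 and 53.5, and DKO cells 77.8, 87.1 and 88.9 against 57.5, 53.2 and 54.6. Each Torin group lay above its control, and the DKO Torin libraries lay above all other Torin libraries. The changes were 0.44, 0.36 and 0.61 (SE 0.10 each).

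CDKN2C encodes p18, the INK4 inhibitor of CDK4 and CDK6 that is known to be an E2F target, and lies on chr1:50960745-50974634 (plus strand). It went the opposite way to CDKN1B and fell with both treatments. WT control libraries had 19.7, 19.8 and 18.7, HBSS libraries 10.1 and 13.2, and WT Torin libraries 11.3 and 10.7. The 2 treated groups overlapped each other below the control. The changes were -0.70 in HBSS (SE 0.19, adjusted p = 0.00240) and -0.77 with Torin (SE 0.19, adjusted p = 0.00108), and the HBSS change did not pass without WT HBSS replicate 1 (-0.52, adjusted p = 0.0835).
TFE3 KO libraries had 17.7, 16.6 and 16.8 in the control and 11.4, 7.35 and 9.78 with Torin. TFEB KO libraries had 25.05, 24.7 and 29.5 in the control, the highest of all groups, and 17.4, 16.5 and 15.1 with Torin. DKO libraries had 16.5, 12.4 and 17.8 in the control and 11.7, 6.64 and 8.86 with Torin. Torin lay below the control in each, with changes of -0.79, -0.66 and -0.74.

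**Figure D2:**
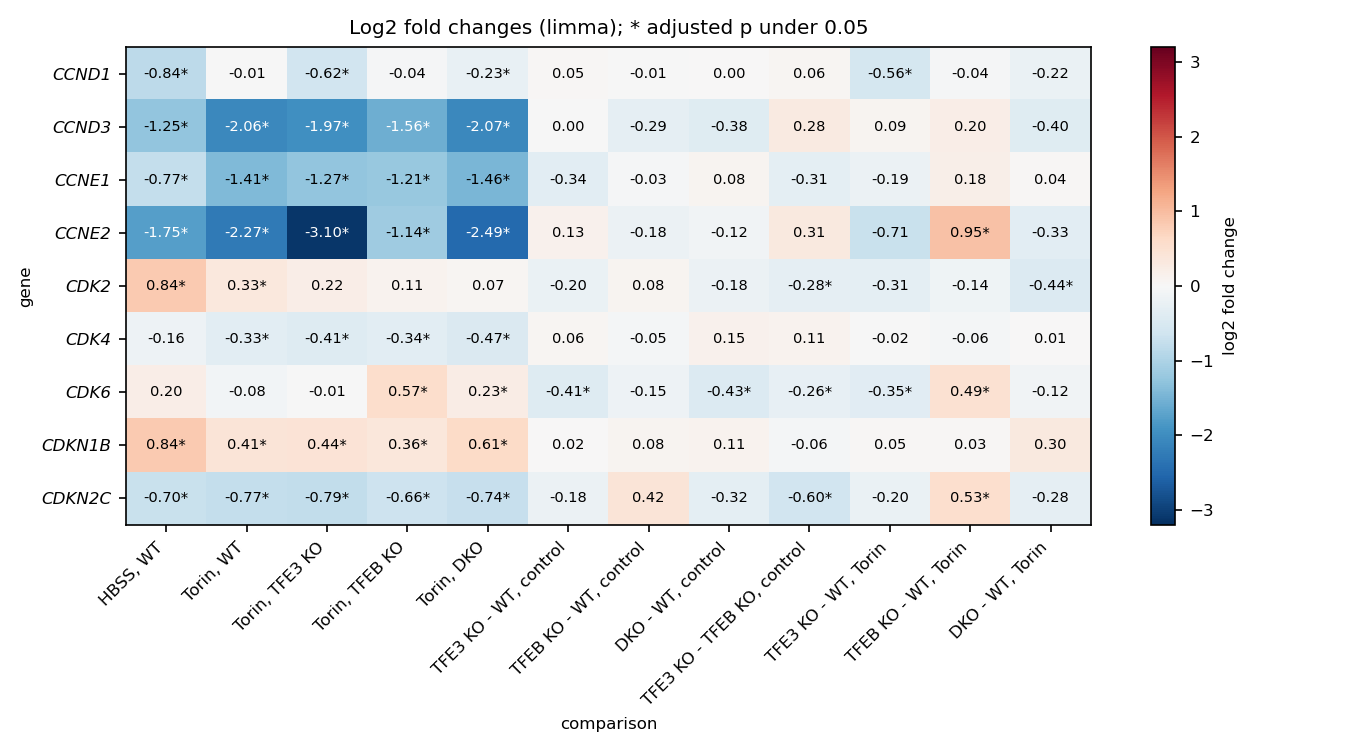
Log2 fold change of each gene (rows) in 12 comparisons (columns), as numbers and colour, with an asterisk where the limma adjusted p was under 0.05. The first 5 columns are treatments against control, where CCND3, CCNE1 and CCNE2 are lower throughout and CDKN1B is higher throughout; the remaining 7 are differences between genotypes.

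The comparison of HBSS with non-treated WT cells asks how these genes move in HBSS. The study grew its human melanoma lines in medium with serum. Whether the HBSS held serum is not stated, so loss of amino acids and of other medium components cannot be told apart. CDK2 and CDKN1B rose and CCND1, CCND3, CCNE1, CCNE2 and CDKN2C fell, 7 of 9, where 48.3% of all genes tested changed. CCND3 and CCNE2 were called, 2 of 9 against 13.1% of all genes. The median log2 fold change of the 9 genes was -0.70, beside -0.03 over all genes tested.
CDK4 and CDK6, which did not pass in HBSS, did so without WT control replicate 2, at -0.22 (adjusted p = 0.0307) and 0.34 (adjusted p = 0.00977).

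Torin against control asks the same of direct mTOR inhibition, and the count of genes that changed was 7 of 9 in WT, TFE3 KO and TFEB KO cells and 8 of 9 in DKO cells. In WT cells CDK2 and CDKN1B rose and CCND3, CCNE1, CCNE2, CDK4 and CDKN2C fell, while 43.9% of all genes changed. In TFE3 KO cells CDKN1B rose and 6 genes fell, CCND1 being the addition, while 51.4% of all genes changed. In TFEB KO cells CDK6 and CDKN1B rose and 5 genes fell, while 38.3% changed, and in DKO cells CDK6 and CDKN1B rose and 6 genes fell, while 51.6% changed. The share of these 9 genes that changed was above the share of all genes in each genotype. The 9 were listed for their known roles, with earlier results of these data known.
CCND3, CCNE1 and CCNE2 were called in each of the 4 genotypes, 3 of 9, where the share of all genes called was 9.66% in WT, 11.7% in TFE3 KO, 5.02% in TFEB KO and 11.1% in DKO cells. The median log2 fold change of the 9 genes was -0.33, -0.62, -0.34 and -0.47 in that order, beside medians of 0.00 to 0.02 over all genes. Leaving out any 1 library of the 2 groups compared left 3 genes called in every genotype.

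HBSS and Torin libraries of WT cells were also set directly against each other, which asks how starvation and drug differ. CCND1 was lower in HBSS by -0.83 (SE 0.10, adjusted p = 9.03e-10). CCND3 (0.80, adjusted p = 9.72e-05), CDK2 (0.50, adjusted p = 0.00225), CDKN1B (0.42, adjusted p = 0.00354), CCNE1 (0.65, adjusted p = 0.0303) and CDK6 (0.28, adjusted p = 0.0490) were higher in HBSS. These 6 of 9 stand beside 49.2% of all genes, and 0 of 9 were called by limma, beside 16.6% of all genes. At an unadjusted p under 0.05 the count was 6 of 9. CCNE1 and CDK6 missed the threshold with edgeR (adjusted p = 0.0542 and 0.0997). CCNE1 also missed it without WT HBSS replicate 1 or WT Torin replicate 3 (adjusted p = 0.293 and 0.158) and CDK6 without WT HBSS replicate 2 or either WT Torin library (adjusted p from 0.05996 to 0.307), as did CDKN1B without WT Torin replicate 2 (0.34, adjusted p = 0.0622). With the identical column returned as a WT Torin library, CDK2 was 0.25 (adjusted p = 0.287), CDKN1B 0.28 (adjusted p = 0.127) and neither CCNE1 nor CDK6 passed (adjusted p = 0.145 and 0.0911). Returned to both groups it left CDK2 at 0.34 (adjusted p = 0.0961) and CDKN1B at 0.28 (adjusted p = 0.0678). CCND3 was 1.16 without WT Torin replicate 3 and 0.45 without WT Torin replicate 2 (adjusted p = 0.0481).

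Genotypes were compared in the control state to ask what loss of each factor does to fed cells, and few of these genes differed. In TFE3 KO against WT, CDK6 alone passed (62.9 ± 2.75 against 84.9 ± 14.9, SD, n = 3 each; -0.41, SE 0.10, adjusted p = 0.00288), 1 of 9 where 9.41% of all genes passed, and 0 were called where 1.52% were. In DKO against WT it was again CDK6 (62.3 ± 5.34; -0.43, SE 0.10, adjusted p = 0.00142), 1 of 9 where 13.1% of all genes passed, and 0 were called where 1.82% were. Both lost significance without WT control replicate 2, the highest WT library at 102, with values of -0.28 (adjusted p = 0.0855) and -0.29 (adjusted p = 0.0540). In TFEB KO against WT, 0 of 9 passed with limma, where 14.6% of all genes did, and 0 were called, where 1.67% were. At an unadjusted p under 0.05 the count was 2 of 9; edgeR passed 1 gene, CDKN2C (0.46, adjusted p = 0.0455; limma 0.42, adjusted p = 0.0952), and DESeq2 passed 0. For the comparisons of TFE3 KO and DKO with WT, the counts at an unadjusted p under 0.05 were 1 and 2, and edgeR and DESeq2 each passed 1 and 2 and called 0.
The 2 single knockouts were also compared with each other in the control state. CDKN2C (17.0 ± 0.57 against 26.4 ± 2.67; -0.60, SE 0.17, adjusted p = 0.00652), CDK2 (-0.28, adjusted p = 0.0448) and CDK6 (-0.26, adjusted p = 0.0379) were lower in TFE3 KO than in TFEB KO cells, 3 of 9 where 29.9% of all genes passed, and 0 were called where 4.05% were (edgeR and DESeq2 also called 0; unadjusted count 4). The CDK6 difference missed the threshold without any 1 of the 6 libraries (adjusted p from 0.0514 to 0.135). That of CDK2 missed it without 5 of the 6, the exception being TFEB KO control replicate 3, and fell to -0.18 (adjusted p = 0.209) without TFEB KO control replicate 1.

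With Torin present, the same genotypes were compared, each against the 2 WT Torin libraries, which these comparisons share. In TFE3 KO cells CCND1 (-0.56, SE 0.09, adjusted p = 9.51e-06) and CDK6 (-0.35, SE 0.11, adjusted p = 0.0314) were lower than in WT, 2 of 9 where 9.64% of all genes passed, and 0 were called where 1.94% were. CCNE2 was 1.30 ± 0.62 (n = 3) against 2.71 ± 0.81 (n = 2), without overlap and without passing (-0.71, adjusted p = 0.0617). It was past both limits with a pseudocount of 0.1 (-1.06, adjusted p = 0.0218) and past the adjusted p without TFE3 KO Torin replicate 2 (-0.92, adjusted p = 0.0221). With the identical column returned as a WT Torin library CCND1 was -0.30 (adjusted p = 0.126) and CCNE2 -0.94 (adjusted p = 0.00976). CDK2 was lower without overlap and did not pass (-0.31, adjusted p = 0.0939), but it passed with edgeR (adjusted p = 0.0327), DESeq2 (adjusted p = 0.0414), limma on only the groups compared (adjusted p = 0.000216) and the identical column returned as a WT Torin library (-0.57, adjusted p = 0.0130). CDK6 missed the threshold without either WT Torin library or without TFE3 KO Torin replicate 1 or 3 (adjusted p from 0.0705 to 0.259).
In TFEB KO cells CCNE2 (6.09 ± 0.72, n = 3; 0.95, SE 0.25, adjusted p = 0.00536), CDK6 (113 ± 7.13; 0.49, SE 0.11, adjusted p = 0.00102) and CDKN2C (16.3 ± 1.18; 0.53, SE 0.19, adjusted p = 0.0485) were higher than in WT, 3 of 9 where 18% of all genes passed. With limma 0 were called where 2.44% of all genes were, and edgeR and DESeq2 each called 1, the unadjusted count being 3. Without WT Torin replicate 3, CCNE2 was 0.72 (adjusted p = 0.142). CCND3 did not pass (0.20, adjusted p = 0.389) and changed sign with the WT Torin library left out, at 0.56 (adjusted p = 0.0363) without replicate 3 and -0.15 (not passing) without replicate 2. CDKN2C missed the threshold without any 1 of the 5 libraries (adjusted p from 0.0607 to 0.222).
In DKO cells CDK2 was lower than in WT (1320 ± 61.0, n = 3, against 1795 ± 45.6, n = 2; -0.44, SE 0.12, adjusted p = 0.0132), 1 of 9 where 12.1% of all genes passed, and 0 were called where 2.37% were. The unadjusted counts were 4 of 9 in TFE3 KO and in DKO cells, and neither edgeR nor DESeq2 called a gene in either. CDK2 missed the threshold without WT Torin replicate 2 (-0.42, adjusted p = 0.0956) or 3 (-0.47, adjusted p = 0.0607). CCND3 did not pass (-0.40, adjusted p = 0.0846) and ran from -0.75 (adjusted p = 0.00516) without WT Torin replicate 2 to -0.04 (adjusted p = 0.927) without WT Torin replicate 3.

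**Figure D3:**
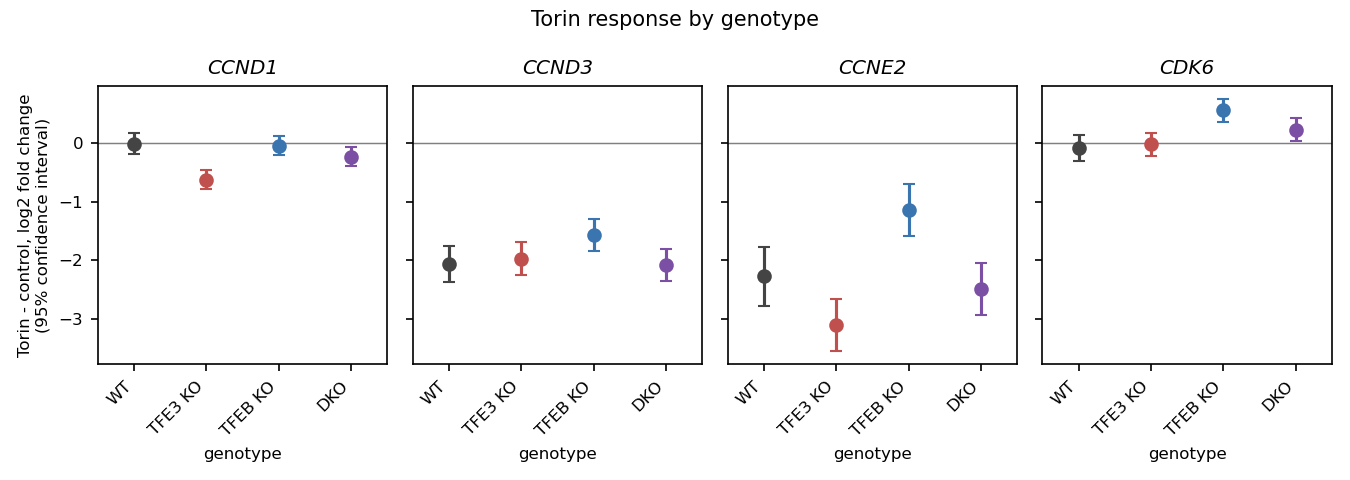
Log2 fold change of Torin against control (y axis) in each genotype (x axis) for CCND1, CCND3, CCNE2 and CDK6; points are limma estimates and bars their 95% confidence intervals. CCND1 is near 0 in WT and TFEB KO and at -0.62 in TFE3 KO cells, and CCNE2 runs from -3.10 in TFE3 KO to -1.14 in TFEB KO cells.

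Whether the Torin response itself depended on genotype was tested as an interaction. Against WT, the CCND1 response was lower in TFE3 KO cells by -0.61 (SE 0.12, adjusted p = 0.00290), 1 of 9 where 1.06% of all genes passed, and 0 were called where 0.276% were. The test did not pass without WT Torin replicate 3 (-0.53, adjusted p = 0.0642). The CDK6 response was higher in TFEB KO cells by 0.64 (SE 0.15, adjusted p = 0.0155), 1 of 9 where 1.16% passed, and 0 were called where 0.207% were. It did not pass without WT control replicate 2 (0.51, adjusted p = 0.0625), WT Torin replicate 3 (0.58, adjusted p = 0.128) or TFEB KO Torin replicate 3 (0.59, adjusted p = 0.0552). For DKO cells 0 of 9 passed, where 0.506% of all genes did, and 0 were called, where 0.161% were; the unadjusted count was 1 with limma and edgeR and 0 with DESeq2. For the single knockouts the unadjusted counts were 2 and 3, and edgeR and DESeq2 called 0 in each. The CCNE2 response did not differ from that of WT with limma in any knockout. It was -0.83 in TFE3 KO (adjusted p = 0.302), 1.13 in TFEB KO (adjusted p = 0.0795) and -0.21 in DKO cells (adjusted p = 0.907).
The 2 single knockouts share no libraries, and their Torin responses differed for 3 of 9 genes where 7.68% of all genes passed. CCNE2 responded more in TFE3 KO than in TFEB KO cells by -1.96 (SE 0.31, 95% confidence interval -2.60 to -1.33, adjusted p = 1.89e-05), the 1 gene called, where 1.38% of all genes were. CCND1 (-0.58, SE 0.11, adjusted p = 0.000375) and CDK6 (-0.58, SE 0.14, adjusted p = 0.00408) also differed. With the identical column returned as a WT Torin library, CCND1 no longer passed in this comparison (adjusted p = 0.122, with the value as before). That column enters this comparison only through the spread shared over all groups. Against WT, neither CCND1 (-0.35, adjusted p = 0.472) nor CDK6 (adjusted p = 0.138) passed in that setting. CCND3 (-0.40, adjusted p = 0.219), CCNE1 (-0.06, interval -0.65 to 0.53), CDK2 (0.11, interval -0.20 to 0.41), CDK4 (-0.07, interval -0.27 to 0.14), CDKN1B (0.08, interval -0.20 to 0.36) and CDKN2C (-0.13, interval -0.63 to 0.36) did not pass.

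The order of the group means put the untreated and treated states apart for some of these genes and not for others. For CCND3, CCNE1, CCNE2 and CDK4 the 4 control groups held the first 4 places; for CCNE2 the lowest control library (13.0) and the highest treated library (6.92) were both in TFEB KO cells. Neighbouring control groups mostly overlapped, as WT and TFE3 KO did for CCND3 (77.1 to 78.6 and 72.5 to 82.3). For CDKN1B the reverse held, with the 5 treated groups first and the 4 control groups, which overlapped one another, last (47.2 to 57.8). CDK6 and CDK2 followed no such split.
Across the 25 libraries, which share groups and scaling, Pearson's r was 0.92 between CCND3 and CCNE2, 0.88 between CCND3 and CCNE1 and 0.86 between CCNE1 and CCNE2. CDKN1B ran against all 3, at -0.78 with CCND3, -0.71 with CCNE1 and -0.79 with CCNE2. Outside the list, the genes most like CCND3 were YTHDF2 (r = 0.99), TUBB2A (0.98) and CTPS1 (0.98). Those most like CCNE1 were MTFP1 (0.95), UBE2K (0.94) and FKBP14 (0.94), and those most like CCNE2 were RBBP8, ICMT and HN1L (0.97 each).

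The 2 remaining overlaps at 3' ends concern cyclins. CCNE2 shares 1977 bases with INTS8, on the opposite strand, which had 9.11 to 24.2 and did not change in HBSS or with Torin (log2 fold changes from -0.08 to 0.17). CCND1 shares 1399 bases with ORAOV1, on the opposite strand, which had 6.08 to 16.1 and rose in HBSS by 0.86, opposite to CCND1.

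The machinery around these genes was followed with 6 lists, which were chosen with earlier results of these data known. Their counts are set beside all genes tested: 48.3% changed in HBSS, 23.6% rising and 24.7% falling. With Torin 17.4% to 25.4% rose and 21% to 26.2% fell. Because of that choice, a count above these shares describes the list and is not a test of it. S-phase entry genes, which load and fire replication origins and make nucleotides, nearly all fell. In HBSS 20 of 20 fell and 6 were called. With Torin 19 of 20 fell in WT (12 called), 20 in TFE3 KO (17 called), 19 in TFEB KO (5 called) and 20 in DKO cells (16 called), and none rose. Of all genes tested, 13.1% were called in HBSS and 9.66%, 11.7%, 5.02% and 11.1% with Torin in that genotype order. The median log2 fold change was -0.73 in HBSS and -1.14, -1.34, -0.86 and -1.32 with Torin, where medians over all genes lay between -0.03 and 0.02. The licensing factor CDC6 had -1.87 in HBSS and -2.16, -2.58, -1.65 and -2.22 with Torin in that genotype order. RRM2, a subunit of ribonucleotide reductase, had -2.37, -2.41, -1.31 and -2.24 with Torin. PCNA, the sliding clamp of DNA polymerase, had -1.59 in HBSS and -1.82 with Torin in WT cells.
The Torin responses of TFE3 KO and TFEB KO cells differed for 14 of these 20 genes, all lower in TFE3 KO, with a median difference of -0.66. Of all genes tested, 7.68% differed, 4.58% being lower in TFE3 KO, and 1.38% were called. Among them 3 were called, GINS1 (-1.58, adjusted p = 1.77e-08), RRM2 (-1.11, adjusted p = 4.14e-09) and MCM4 (-1.05, adjusted p = 7.07e-07). Over the alternatives that kept all 25 libraries or returned an identical column, chosen for the lists after the data were seen, the count ran from 8 to 14, and 0 genes were higher.

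**Figure D4:**
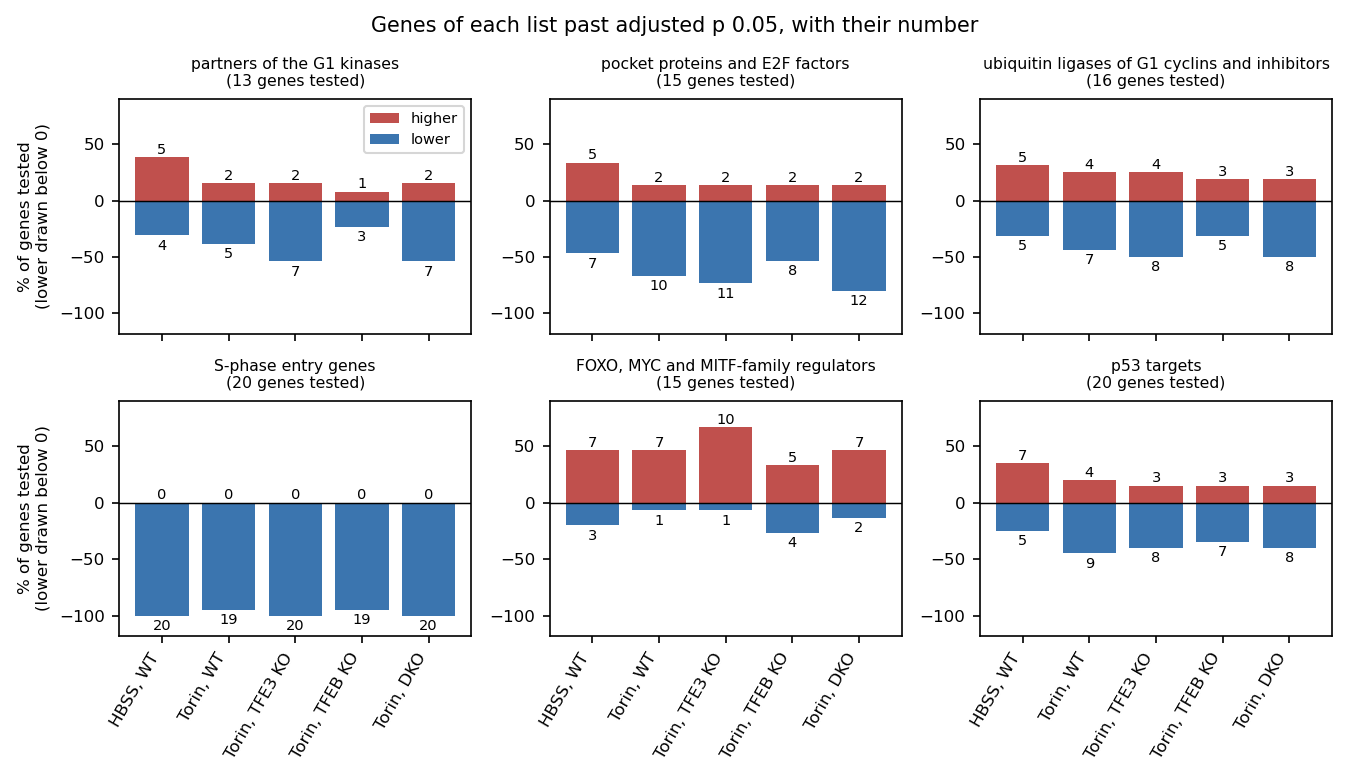
Share of the tested genes of each of 6 lists (y axis, percent) that were higher (red, above 0) or lower (blue, below 0) at a limma adjusted p under 0.05 in HBSS and in Torin by genotype (x axis), with the number of genes on each bar. S-phase entry genes are lower in 19 or 20 of 20 in every comparison, and no other list goes one way to that extent.

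Of 15 pocket protein and E2F genes, which sit between the G1 kinases and the S-phase genes, 7 fell and 5 rose in HBSS. With Torin 10, 11, 8 and 12 fell and 2 rose in the genotype order used above. In all 80% of the list changed in HBSS, beside 48.3% of all genes, and 80%, 86.7%, 66.7% and 93.3% with Torin, beside 43.9%, 51.4%, 38.3% and 51.6%. The activator E2F1 had -1.93, -2.51, -1.31 and -2.15 with Torin, and E2F2 had -2.03, -2.89, -1.75 and -3.19. In HBSS E2F2 (-1.33) and E2F8 (-1.17) were called lower and LIN54 (1.18), a subunit of the DREAM repressor, higher. TFDP2, a dimer partner of E2F, was called higher with Torin in TFE3 KO (1.24) and DKO cells (1.02). Torin responses of E2F1 and E2F2 were lower in TFE3 KO than in TFEB KO cells by -1.20 (adjusted p = 0.00140) and -1.14 (adjusted p = 0.00148).
Of 15 partners of the G1 kinases 13 were tested; 5 rose and 4 fell in HBSS, and with Torin 2, 2, 1 and 2 rose and 5, 7, 3 and 7 fell in that order. That is 69.2% in HBSS against 48.3% of all genes, and with Torin 53.8% against 43.9%, 69.2% against 51.4%, 30.8% against 38.3% and 69.2% against 51.6%, so in TFEB KO cells the share was below that of all genes. CDC25A, the phosphatase that activates CDK2, had -1.09 in HBSS and -2.42, -2.72, -1.61 and -2.50 with Torin. Its response differed between TFE3 KO and TFEB KO cells by -1.11 (adjusted p = 0.000477). CKS2, a small kinase-binding protein, was called lower with Torin in WT (-1.06), TFE3 KO (-1.30) and DKO cells (-1.46), CKS1B in DKO cells (-1.07), and CDK7, the kinase that activates other cyclin-dependent kinases, was called higher in TFEB KO cells (1.01).
Among 16 genes of ubiquitin ligases that turn over G1 cyclins and inhibitors, 5 rose and 5 fell in HBSS, and with Torin 4, 4, 3 and 3 rose and 7, 8, 5 and 8 fell. The share that changed was 62.5% in HBSS (all genes 48.3%) and 68.8%, 75%, 50% and 68.8% with Torin (all genes 43.9%, 51.4%, 38.3% and 51.6%). SKP2, which targets p27 for destruction, was called lower in HBSS (-1.20), as was DTL (-1.08), and FBXO31, which targets cyclin D1, was called higher (1.38). DTL was also called lower with Torin in WT (-1.23), TFE3 KO (-1.82) and DKO cells (-1.995).

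Of 15 FOXO, MYC and MITF-family regulators tested, 7 rose and 3 fell in HBSS, and with Torin 7, 10, 5 and 7 rose and 1, 1, 4 and 2 fell. The share that changed was 66.7% in HBSS and 53.3%, 73.3%, 60% and 60% with Torin, beside 48.3% and 43.9%, 51.4%, 38.3% and 51.6% of all genes. MYC itself was called higher with Torin in all genotypes (1.42, 1.14, 1.52 and 1.35), as was the MYC antagonist MXD4 (1.59, 2.35, 1.18 and 2.18). MXI1, another MYC antagonist, was called higher in HBSS (1.37) and with Torin in WT (1.14), TFE3 KO (1.05) and DKO cells (1.07). FOXO3, an activator of CDKN1B, was called higher in HBSS (1.68), and FOXM1, a driver of later cell cycle genes, was called lower with Torin in TFE3 KO (-1.05) and DKO cells (-1.20).
Since CDKN1A is not analysed here, 20 other targets of p53 were counted. In HBSS 7 rose and 5 fell, and with Torin 4, 3, 3 and 3 rose and 9, 8, 7 and 8 fell. These were 60% of the list in HBSS (all genes 48.3%) and 65%, 55%, 50% and 55% with Torin (all genes 43.9%, 51.4%, 38.3% and 51.6%), so the share in TFE3 KO and DKO cells was near that of all genes. BBC3, which encodes the death protein PUMA, was called higher in HBSS (4.16) and with Torin (2.76, 2.87, 2.25 and 2.63), and the stress gene SESN2 was higher in HBSS (3.47) but lower with Torin in WT cells (-1.42). BAX was called lower in HBSS (-1.39), and the nuclease gene AEN was called lower with Torin in all genotypes (-1.25, -2.25, -1.21 and -2.14). The list did not move one way.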

How the data were processed

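RNA-seq 3' end libraries of the 501mel line were trimmed with cutadapt 2.10, checked with FastQC 0.11.9, aligned to hg38 with STAR 2.7.8a and normalised with edgeR, per the submitters' processing notes and the study's methods. The counter, annotation, strand setting, scaling factors and gene filter are not given in the sources used here. The deposited table holds gene-level signal values that the authors made by scaling read counts per library. Every value was a whole multiple of 1 step per library (100% within 0.02 reads), so reads were recovered for the count tests. All 27 sample columns were mapped to samples by title. Of these, 2 identical columns with different labels were left out, since the labels alone do not tell which is right.

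The fit took the 13052 genes that reached a value of 1 in 3 or more libraries (471 were not tested) and used log2(value + 1) in limma 3.58.1 (R 4.3.3; lmFit, eBayes with trend and robust) over 25 libraries and 9 groups, with 17 two-sided comparisons and Benjamini-Hochberg adjustment within each. A called gene had an adjusted p under 0.05 and a change of at least 2-fold. The scripts were tested on simulated data. Libraries held 4147050 to 6526392 reads; this depth limits low genes such as CCNE2, and intervals cover the spread between libraries. The settings tried besides were 0.1 as pseudocount, fitting without the filter, 5 as the minimum value, median-of-ratios scaling, edgeR 4.0.16 (quasi-likelihood) and DESeq2 1.42.0 on recovered reads, a fit of only the groups compared, a replicate block, the identical column returned to either group or both, and each library left out.

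The genes and lists were chosen with earlier results of these data known. The genes named were the 10 listed; TFE3, TFEB and MITF; at most 3 called genes with the highest and 3 with the lowest change per list and comparison; and, for each listed gene called in any comparison, the 3 genes with the highest Pearson r over the libraries (mean of at least 5). PMEL, TSPAN31, INTS8 and ORAOV1 were added after their values were seen. Positions are from GENCODE 44 on hg38 and promoter windows from RefSeq on GRCh38.p14.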

Additional observations from a re-analysis of the deposited data

Results flagged for a closer look

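Torin changed some of these genes by different amounts in different genotypes, each difference being tested as an interaction in limma over all genes. The log2 CCND1 response differed by -0.61 between TFE3 KO and WT cells (adjusted p = 0.00290) and by -0.58 between TFE3 KO and TFEB KO cells (adjusted p = 0.000375). The CDK6 response was 0.64 higher in TFEB KO than in WT cells (adjusted p = 0.0155) and differed by -0.58 between TFE3 KO and TFEB KO cells (adjusted p = 0.00408). The CCNE2 response differed by -1.96 between TFE3 KO and TFEB KO cells (adjusted p = 1.89e-05). Without WT Torin replicate 3, 1 of only 2, neither difference from WT passed (adjusted p = 0.0642 for CCND1 and 0.128 for CDK6). That of CDK6 also missed the threshold without WT control replicate 2 or TFEB KO Torin replicate 3 (adjusted p = 0.0625 and 0.0552). CCNE2 had 4, 9 and 5 reads in TFE3 KO cells with Torin. Each single knockout was 1 clone, so clone and genotype cannot be told apart.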

How the results depend on the processing

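Of 2727 values of the 9 genes over all alternatives, 2598 stayed on the same side of the threshold, 94 lost it, 35 gained it and 0 changed direction while past it. Values that passed in neither fit count as having stayed, here and below, and could not lose the threshold. The share that lost it is thus larger among values that passed with limma over all groups. Of the 1044 that left out 1 library, 48 lost it and 6 gained it. Among the 9 genes, the number called went from 0 to 1 in TFE3 KO against WT with Torin under a pseudocount of 0.1, and from 0 to 1 in TFEB KO against WT with Torin under a pseudocount of 0.1, edgeR, DESeq2 or the replicate block. Leaving out 1 library gave 0 to 1 there (1 without WT Torin replicate 2), 0 to 1 in HBSS against Torin (1 without WT Torin replicate 3) and 2 to 3 in HBSS against control.
Deviations from the group mean correlated from -0.19 to 0.16 between same-numbered libraries (median 0.0067, 4 of 92 over 0.1). Between differently numbered libraries they correlated from -0.15 to 0.25 (median -0.0022, 5 of 185 over 0.1). No shared deviation was seen, which cannot tell whether same-numbered libraries were handled together. The replicate block left 146 of 153 values on their side, with 2 losing and 5 gaining the threshold.
Over all genes, counts of called genes moved by over 1.5 times in these cases. With edgeR, Torin in TFEB KO went from 655 to 1025, DKO against WT from 237 to 363 (375 with a pseudocount of 0.1) and the TFE3 KO interaction from 36 to 22 (19 with DESeq2). A minimum of 5 took TFEB KO against WT from 218 to 145 and, with Torin, TFE3 KO against WT from 253 to 162, TFEB KO from 318 to 190 and DKO from 309 to 194. Fitting only the groups compared gave 155 for TFE3 KO against WT with Torin, 23 for the TFE3 KO interaction and 9 instead of 21 for DKO. The identical column returned as WT Torin took Torin in WT from 1261 to 799, HBSS against Torin from 2165 to 666, the interaction of TFEB KO from 27 to 1, of TFE3 KO to 9 and of TFE3 KO against TFEB KO from 180 to 90, and raised TFE3 KO and DKO against WT with Torin to 410 and 531. Returned as WT HBSS, the identical column took HBSS against control from 1710 to 1670 and HBSS against Torin from 2165 to 2129. The cause was not tested. The 2 libraries per treated WT group limit every comparison that uses them.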
